A study of Mus musculus with 31 samples.

Results

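Peaks of 1500 bp or more over the promoters of protein-coding genes are described here in NIH-3T3, a line of mouse fibroblasts, in its parental form. They were selected by width and position from the ATAC-seq peak list of this line: a peak had to lie on chromosomes 1 to 19, be at least 1500 bp wide, reach to within 1 kb of the transcription start site (TSS) of a protein-coding gene, and consist of at most 50% repeat-masked bases. The rule found 431 peaks among 12275 autosomal coding promoter peaks, or 3.51%, and among 63456 peaks in all. These peaks lay over or within 1 kb of the starts of 520 genes, which is 2.51% of 20698 autosomal protein-coding genes. Of those genes, 11050 had a promoter peak of any width, or 53.4%, and 4.71% of these had a very wide one. The study asked how transcription factors (TFs) bind mitotic chromosomes and whether they alter accessible chromatin. Its ATAC-seq series holds 31 libraries. The parental cells form 1 library without a TF transgene, and the labels list no doxycycline for them, whereas the methods describe doxycycline for NIH-3T3 cells in this assay with no exception, so whether they received it is not settled. That library was made from 50000 cells, whose nuclei were transposed with Tn5 at 0.5 µM for 30 min at 37 °C. The other 30 libraries, in which doxycycline-induced TFs or the activator rtTA3G alone were expressed, were not analysed here. With 1 library there is no replicate error. Intervals below are 95% intervals, Wilson's for a share and order-statistic for a median, and cover counting error only.

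In ATAC-seq the transposase Tn5 inserts adapters into DNA that nucleosomes leave free, so that sequenced fragments pile up where chromatin is open. Most promoters of widely used genes lie in CpG islands, GC-rich stretches in which CpG dinucleotides have been kept because they are usually unmethylated. Such islands tend to hold an open region without nucleosomes round the start site, and to bind factors such as SP1 and its relatives at the GC box GGGCGG.

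The sequence under 6 picked summits gives examples of the promoters that the rule brought together, and not their proportions. Each stretch below holds the summit, the point of highest fragment coverage, with 100 bp to either side in the GRCm38 (mm10) reference, written in the direction of the gene, with CpG dinucleotides and the AP-1 site TGACTCA (in either orientation) in capitals. None of the 6 windows overlapped an annotated exon. Ppp2r3d had the widest peak and Ptp4a1 the deepest, Jun was the AP-1 gene among them, and Hnrnph1 is one of the hnRNP genes. Thbs1 and Acta2 are from the 51 of the 431 peaks with summits outside CpG-island sequence, as defined below.
Ppp2r3d, chr9:124423011-124423211, strand -: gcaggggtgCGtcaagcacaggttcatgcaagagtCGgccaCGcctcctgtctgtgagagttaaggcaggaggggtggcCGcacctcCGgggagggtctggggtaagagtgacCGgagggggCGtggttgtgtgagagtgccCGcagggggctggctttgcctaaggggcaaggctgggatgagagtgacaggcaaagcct
Ptp4a1, chr1:30949825-30950025, strand -: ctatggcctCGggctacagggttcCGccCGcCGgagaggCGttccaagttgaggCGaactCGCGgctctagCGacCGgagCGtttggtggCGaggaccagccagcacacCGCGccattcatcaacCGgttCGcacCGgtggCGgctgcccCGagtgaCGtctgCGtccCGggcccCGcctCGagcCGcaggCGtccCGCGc
Jun, chr4:95052253-95052453, strand -: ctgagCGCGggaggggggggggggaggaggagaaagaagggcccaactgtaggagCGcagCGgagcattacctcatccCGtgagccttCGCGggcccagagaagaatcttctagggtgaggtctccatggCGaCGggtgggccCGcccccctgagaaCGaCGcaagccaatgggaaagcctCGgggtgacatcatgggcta
Hnrnph1, chr11:50377488-50377688, strand +: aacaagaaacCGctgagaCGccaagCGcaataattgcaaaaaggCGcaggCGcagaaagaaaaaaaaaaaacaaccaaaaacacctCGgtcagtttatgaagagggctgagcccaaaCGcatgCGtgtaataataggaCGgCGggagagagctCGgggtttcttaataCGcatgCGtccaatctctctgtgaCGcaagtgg
Thbs1, chr2:118110262-118110462, strand +: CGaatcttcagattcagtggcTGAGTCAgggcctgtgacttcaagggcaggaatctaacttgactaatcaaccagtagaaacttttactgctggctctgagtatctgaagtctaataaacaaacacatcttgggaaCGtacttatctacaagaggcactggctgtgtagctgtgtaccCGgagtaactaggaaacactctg
Acta2, chr19:34254880-34255080, strand -: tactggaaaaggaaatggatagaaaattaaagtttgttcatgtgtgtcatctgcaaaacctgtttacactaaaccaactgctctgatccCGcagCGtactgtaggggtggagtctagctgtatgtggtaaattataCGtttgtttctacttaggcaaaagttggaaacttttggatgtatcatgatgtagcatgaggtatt

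The Ptp4a1 window held 28 CpG dinucleotides and 1 GC box, and 71.1% of its bases were G or C. The Ppp2r3d window held 8 CpGs, at a ratio of observed to expected CpG of 0.44. Within 250 bp of its summit that ratio was 0.637. The Jun window held 13 CpGs and the Hnrnph1 window 14, the latter at a GC content of 48.3%. The Thbs1 and Acta2 windows held 3 CpGs each, and the Thbs1 window had 1 TGACTCA. The stretches therefore ranged from dense CpG-island sequence 155 bp upstream of the Ptp4a1 start to AT-rich intronic sequence of Acta2, 610 bp downstream of its start.

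The very wide peaks were the tail of a continuous distribution of widths. Their median width was 1647 bp (range 1500 to 2776), against 707 bp for the 11763 narrower promoter peaks. Just inside the threshold were the peaks of Pign and Relch (1500 bp), Phc1 (1500 bp) and Ss18 (1501 bp). Just outside were Rasal2, Rarg and the shared peak of Srsf7 and Ttc39d, each 1498 bp wide. As the plot of widths shows, no gap separates the 2 sides. Because width chose the peaks, the 2383 promoter peaks from 1000 to under 1500 bp (the next width class) serve below as the nearest set, beside all narrower ones, which include them.

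**Figure D1:**
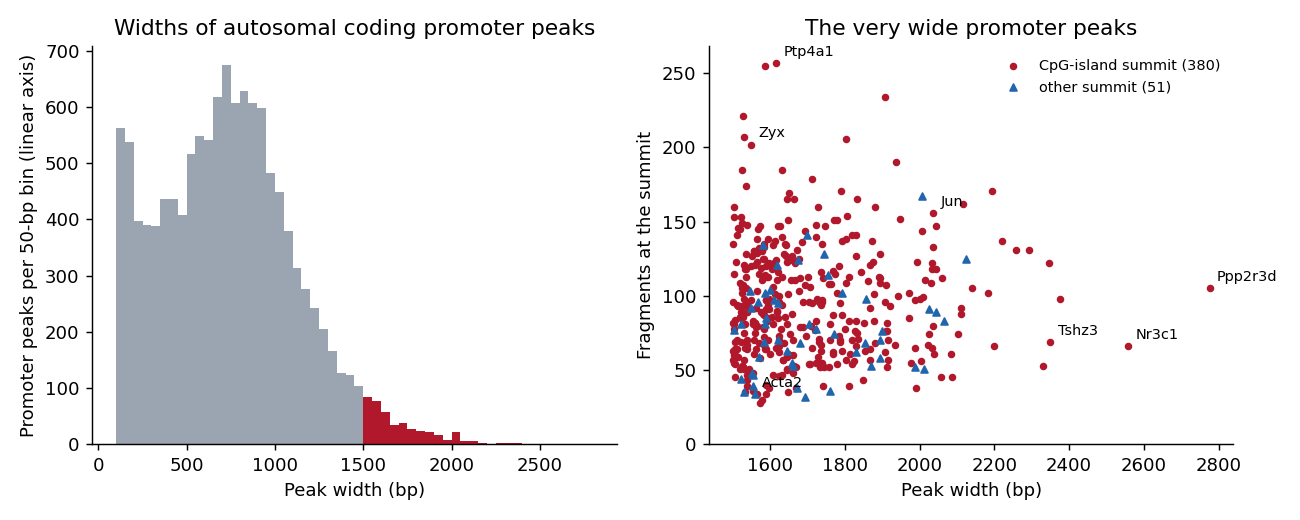
Left, the number of autosomal coding promoter peaks per 50-bp bin of peak width (bp), with the very wide peaks in red. Right, width (bp) against fragments at the summit for the 431 very wide peaks, as circles for the 380 with CpG-island sequence at the summit and triangles for the other 51; the deepest peak, Ptp4a1, was 1616 bp wide and the widest, Ppp2r3d, had 105 fragments.

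The widest peak, 2776 bp over Ppp2r3d, a gene for a regulatory subunit of protein phosphatase 2A, had 105 fragments at its summit and a fold enrichment of 7.15. The local coverage expected by the peak caller there was 13.8 fragments, against a median of 8.49 for all 431 peaks. Nr3c1, which encodes the glucocorticoid receptor, followed with 2558 bp and 66 fragments, and its peak reached 2070 bp upstream of the nearest start and 487 bp downstream. The peak of Tshz3, a zinc finger gene, was 2350 bp wide, with 69 fragments, and reached 1994 bp upstream and 355 bp downstream. Measured from the covered start nearest the summit, both peaks thus extended mainly upstream. The Nr3c1 peak covered 5 annotated coding starts, however, so its upstream part may hold other starts of the gene, whereas the Tshz3 peak covered 1. In other members of the widest 15 the reverse held: the peak of Kat2b, a histone acetyltransferase gene, reached 753 bp upstream and 1576 bp downstream, that of Kansl1l 621 and 1672 bp, and that of Ywhaz, a 14-3-3 protein gene, 776 and 1481 bp. The widest 15 also included the peaks of Cobll1 (2346 bp), Lrrc41 with Uqcrh (2221 bp), Sinhcaf (2198 bp), Cdca3 with Usp5 (2194 bp), Cpeb2 (2183 bp), Zbtb14 (2141 bp), Sema4c (2125 bp) and Slc39a10 (2115 bp). All 15 had between 53 and 171 fragments at the summit, so that the widest peaks were not the deepest.

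The deepest of the very wide peaks lay over Ptp4a1, a gene for a protein tyrosine phosphatase, with 257 fragments at the summit and 1616 bp. The shared peak of Dbf4, the activating subunit of the replication kinase Cdc7, and Slc25a40 had 255 fragments, and that of Fam72a and Srgap2 had 234. The 10 deepest further included R3hdm1 with Zranb3 (221 fragments), Stk25 (207), the focal adhesion gene Zyx (202), 1810013L24Rik (190), Dock4 with Zfp277 (185) and the deubiquitinase gene Usp1 (185). Of the 10 deepest peaks, 4 held the starts of 2 coding genes. No peak stood in both this group and the widest 15.

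Across promoter peaks, width went with depth. A peak ends where coverage falls below the caller's limit, so the measures are linked by how peaks are called. Over the 12194 promoter peaks that passed the repeat filter, Spearman's rho between width and summit fragments was 0.67, a description of peaks that share 1 library and its depth. Among the 431 very wide peaks it was 0.05, over a narrower range of widths. The very wide peaks had a median of 89 fragments at the summit (83 to 95), the next width class a median of 81 (79 to 82) and all narrower peaks 55 (54 to 56). No peak under 25 fragments was very wide, of 1797 such peaks, and 9.94% (7.09 to 13.8) of the 312 peaks with 150 fragments or more were. Their fold enrichment did not follow. The median was 9.53 (9.20 to 9.76) for the very wide peaks and 10.6 (10.5 to 10.7) for the next width class, and the expected local coverage had medians of 8.49 and 6.76 fragments. The methods name no control among the caller's settings, so a wide peak's own fragments may raise its expected coverage. A lower fold may thus follow from the width that chose the peaks, and this was not tested. Restricted to the middle range of depth of the very wide peaks (65 to 118.5 fragments), the median fold enrichment was 9.70 in 215 very wide peaks and 11.6 in 3779 narrower ones. Values at matched depth below compare these sets, so their narrower side holds all widths under 1500 bp and not the next width class alone. Depth was restricted to the same range but not matched within it. The median depth was still 89 fragments (85 to 94) in the very wide set and 84 (83 to 84) in the narrower one.

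CpG-island sequence, defined as at least 50% GC and a ratio of observed to expected CpG of at least 0.6 within 250 bp of the summit, was present in 380 of the 431 very wide peaks, or 88.2% (84.8 to 90.9). The share was 89.4% (88.1 to 90.6) in the next width class and 70.1% (69.3 to 70.9) in all narrower peaks. At matched depth it was 87.9% (82.9 to 91.6) against 83.4% (82.2 to 84.5), with intervals that overlapped. The very wide peaks and the next width class thus had overlapping intervals for an island at the summit. The GC box GGGCGG stood within 150 bp of the summit in 78.0% of the very wide peaks (73.8 to 81.6) and 78.5% of the next width class, against 62.5% of all narrower ones. At matched depth its shares were 80.5% (74.7 to 85.2) and 72.8% (71.4 to 74.2), with intervals that did not overlap.

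The islands were longer under the very wide peaks. The CpG-rich stretch that holds the summit (joined 200-bp windows that each pass the same limits, within 3 kb) had a median of 1640 bp (1584 to 1692) in the very wide peaks, 1198 bp (1181 to 1220) in the next width class and 884 bp (873 to 895) in all narrower ones. At matched depth the medians were 1602 bp (1543 to 1688) and 965 bp (952 to 982). A stretch of at least 1500 bp was present in 61.3% (56.6 to 65.7), 23.8% and 12.8% of the 3 sets. Jun had one of 3575 bp, Cpeb2 one of 3269 bp and Nr3c1 one of 3147 bp. CpG-rich sequence covered a median of 93.2% of a very wide peak (91.1 to 94.9), close to the 92.8% in the narrower peaks. The stretch was longer than the peak in 45.5% (40.8 to 50.2) of the very wide peaks. That was a lower share than the 59.4% (58.5 to 60.3) in all narrower peaks, and the next width class lay between.

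Depth and length of the stretch both went with the share of very wide peaks. Among promoter peaks with 100 or more summit fragments, 2.68% (1.76 to 4.06) were very wide where the stretch was under 1000 bp, 4.83% (3.51 to 6.62) from 1000 to under 1500 bp, 26.6% (21.6 to 32.3) from 1500 to under 2000 bp and 39.8% (31.1 to 49.2) from 2000 bp on. At 50 to 99 fragments the shares were lower in each class, from 1.84% (1.40 to 2.41) to 23.8% (18.6 to 30.0). Even in the top class at the higher depth, 65 of 108 peaks stayed below 1500 bp. The part of the island's length in the width was not tested.

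**Figure D2:**
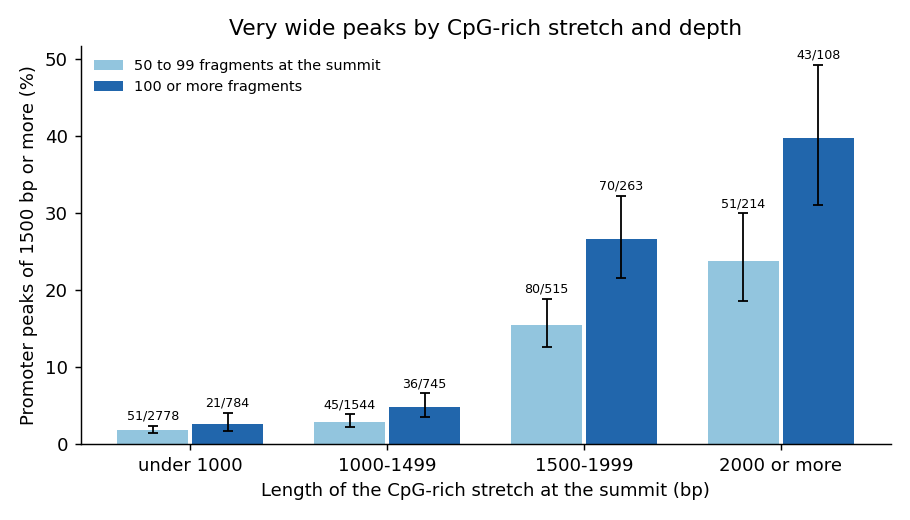
Bars give the share (%) of promoter peaks that were 1500 bp or wider, by the length of the CpG-rich stretch at the summit (bp), for peaks of 50 to 99 and of 100 or more summit fragments; error bars are 95% Wilson intervals and the labels count the peaks. The share rose from 2.68% to 39.8% at the higher depth.

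The very wide peaks were not drawn out evenly round their summits. The summit lay at a median of 29.2% (27.7 to 30.6) of the width from the nearer edge, against 34.5% (33.7 to 35) in the next width class, and it fell in the middle 50% of the peak in 63.6% (58.9 to 68.0) against 80.1% (78.5 to 81.7). The 340 very wide peaks that overlapped starts of coding genes on 1 strand reached a median of 746.5 bp upstream of the nearest start and 944 bp downstream. The downstream side was the longer in 209 of them, or 61.5% (56.2 to 66.5), beside 62.6% (60.5 to 64.8) in the next width class and 60.7% (59.6 to 61.7) in all narrower peaks. At 1000 bp downstream of the start 45.6% of these peaks were still open, and at 1000 bp upstream 24.4%. A narrower peak can seldom reach so far to one side, so this difference between width classes follows from the selection. The open region ran past the end of the first exon in 291 of the 340, or 85.6% (81.5 to 88.9), beside 87.8% in the next width class and 75.6% in all narrower peaks. Their summits lay a median of 75.5 bp upstream of the start (58 to 90), against 44.5 bp (38 to 52) in the next width class. By bases, 36.6% of the very wide peaks was intron, 30.6% outside coding transcripts, 23.7% UTR and 9.07% coding sequence, within 2 percentage points of the shares in the next width class.

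**Figure D3:**
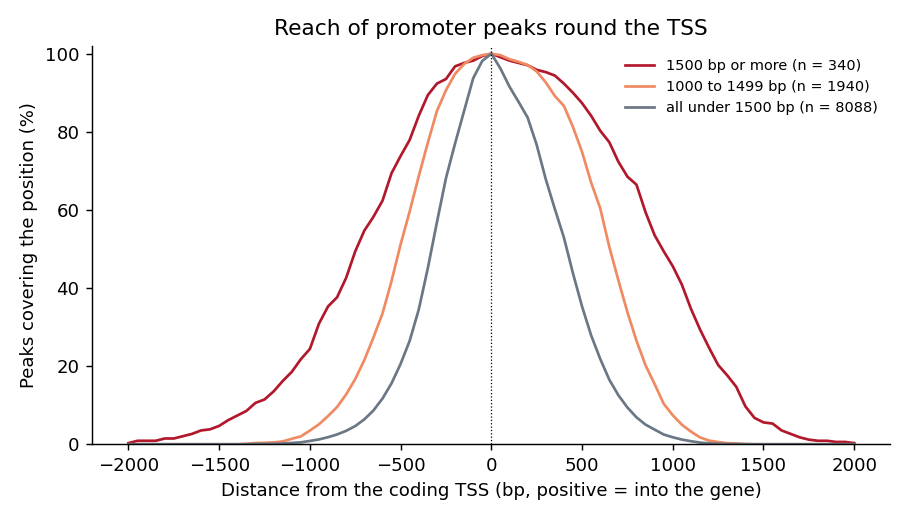
Share of peaks (%) that cover each position against the distance from the nearest coding TSS (bp, positive into the gene), for peaks that overlap coding starts on 1 strand. The very wide peaks (n = 340) covered 45.6% at 1000 bp into the gene and 24.4% at 1000 bp before it.

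A part of the very wide peaks joined the starts of several genes. A coding start was overlapped by 422 of the 431. Counting starts within 1 kb too, 344 peaks had 1 coding gene, 83 had 2 and 4 had 3. In 79 of the 83 pairs the genes were on opposite strands. Coding starts on both strands were found in 19.3% of the very wide peaks (15.8 to 23.2), in 15.4% (14 to 16.9) of the next width class and in 9.66% (9.14 to 10.2) of all narrower ones, and the first 2 intervals overlapped. A further 99 very wide peaks had a non-coding transcript start on the other strand. Some annotated start on each strand was thus present in 42.2% (37.7 to 46.9), against 33.2% (31.3 to 35.1) in the next width class. A wider interval holds more starts by its length alone, and this was not adjusted for. The 10 peaks with most start positions were led by the one shared by Hnrnpk and Rmi1, with 16 starts over 1895 bp. Those of Mboat7 with Tsen34, of Hdlbp with Sept2 and of Ewsr1 with Rhbdd3 had 12 each, and that of Akt1s1 with Tbc1d17 had 11. Eif1a with Tmed7, Ube2d3, Nudt6 with Spata5 and Dnajb4 with Fubp1 had 10 each, and Bnc2 had 9. Of these 10 peaks, only those of Ube2d3, a ubiquitin-conjugating enzyme gene, and Bnc2 held 1 gene.

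Genes of RNA processing were the best represented among the 23 gene lists that were counted. Of 30 genes for splicing factors and hnRNPs, the proteins that package and splice nascent RNA, 12 had a very wide promoter peak, or 40% (24.6 to 57.7), against 2.51% of all autosomal coding genes. Hnrnpf had the widest (2031 bp, 109 fragments), followed by Hnrnpk (1895 bp, 109 fragments), Hnrnpdl (1861 bp, 110 fragments), Hnrnpa2b1 (1768 bp, 87 fragments) and Hnrnph1 (1768 bp, 61 fragments). Srsf2, Srsf6, Hnrnpa1, Hnrnpa0, Hnrnph3, Hnrnpul2 and Hnrnpab made up the rest, from 1523 to 1760 bp. The list as a whole had wide peaks: 29 of its genes were open, with a median width of 1332 bp against 822 bp for all open genes, and Srsf7 missed the threshold with 1498 bp. The median depth of its peaks was 87 fragments against 64, and their CpG-rich stretch 1687 bp against 961 bp. In 7 of the 12 genes the peak was shared with a neighbour, among them Cbx3 beside Hnrnpa2b1 and Cbx5 beside Hnrnpa1. Cbx3 and Cbx5 encode heterochromatin protein 1 family members, and the human promoter pair of HNRNPA2B1 and CBX3 is known as an element that keeps transgenes open.

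Factors that bind GC boxes had the next share at this threshold. With a minimum width 250 bp lower, the KLF and SP list kept its 24% while 5 other lists passed it, from 26.1% for actin and SRF genes to 36.8% for heat shock and ubiquitin genes. Of 25 genes of the KLF and SP families, 6 had a very wide peak, or 24% (11.5 to 43.4), and 15 were open. They were Sp3 (2036 bp, 80 fragments), Klf16 (1854 bp, 63 fragments), Klf11 (1739 bp, 135 fragments), Sp4 (1664 bp, 165 fragments), Klf13 (1583 bp, 133 fragments) and Sp1 (1538 bp, 148 fragments). Of 23 genes of the actin cytoskeleton and targets of SRF, 5 had one: Tagln2 (1706 bp), the smooth muscle actin gene Acta2 (1559 bp), Zyx (1548 bp), the cytoplasmic actin gene Actb (1538 bp) and the myosin light chain gene Myl12a (1535 bp). Their depths differed widely, from 34 fragments at Acta2 to 202 at Zyx. The Myl12a peak was shared with neighbouring genes. Genes of chromatin regulators had 4 of 30, Brd2 (1900 bp), Eed (1615 bp), Ep300 (1543 bp) and Ezh2 (1510 bp). Of these, Eed and Ezh2 encode subunits of Polycomb repressive complex 2. The Brd2 peak was shared with a neighbouring gene.

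Replication-dependent histone genes, which lie in clusters, had 8 of 66 by gene, but these were 4 peaks. Hist1h4a, Hist1h3a and Hist1h1a shared 1 peak of 2024 bp, Hist1h2be and Hist1h1e 1 of 1894 bp, and Hist2h3b and Hist2h2bb 1 of 1829 bp, while Hist1h1b had 1555 bp to itself. These genes exist in near-identical copies, so reads that could not be placed uniquely may be missing from the peaks. Extracellular matrix genes had 3 of 25: the laminin gene Lamc1 (2014 bp, 111 fragments), the thrombospondin gene Thbs1 (1869 bp, 53 fragments) and the fibrillin gene Fbn1 (1598 bp, 38 fragments). The Fbn1 peak was shared with a neighbouring gene. The signalling, heat shock and forkhead lists had 2 or 3 genes each. They were Yap1 (1792 bp) and Amotl2 (1618 bp) of 17 in the Hippo pathway, Rasa1 (1783 bp) and Dusp4 (1501 bp) of 17 MAPK and growth factor feedback genes, Bmpr2 (1760 bp) and Ltbp1 (1632 bp) of 25 TGF-beta and BMP genes, Hsp90ab1 (1913 bp) and Dnajb4 (1623 bp) of 19 heat shock and ubiquitin genes, and Foxn2 (1741 bp), Foxp4 (1619 bp) and Foxf2 (1537 bp) of 41 forkhead genes.

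Being open did not carry a very wide peak with it. All 22 immediate early and AP-1 genes had a promoter peak, and 1 of them, Jun, a subunit of AP-1, was very wide at 2037 bp, with 156 fragments and a fold enrichment of 7.36. The next were Egr1 (1464 bp) and Fosl2 (1406 bp), and the median of the list was 793.5 bp although its CpG-rich stretches had a median of 1772.5 bp. With 1 of 22, the list had a share of 4.55% (0.807 to 21.8), close to the 4.71% of all open genes. Cytosolic ribosomal protein genes, among the most transcribed genes of most cells, were open in 77 of 79. Of these, 2 were very wide, Rpl7 (2006 bp, a peak shared with a neighbouring gene) and Rps3a1 (1596 bp). That was 2.60% (0.715 to 8.98) of the open genes of the list beside 4.71% of all open genes, at a median of 63 fragments. Mitochondrial ribosomal protein genes had 1 of 78, Mrpl37 (1505 bp), and proteasome subunits 1 of 38, Psma7 (1535 bp). The peaks of Mrpl37 and Psma7 were each shared with a neighbouring gene. The cell cycle list had Cdkn2c (2000 bp) of 27 and the list of RUNX, TEAD, NFI and mesenchymal factors Runx1 (1707 bp) of 25. Hox, SOX, epithelial, neuronal, blood and olfactory receptor genes had none, of 39, 18, 20, 18, 19 and 1085. Of these genes only 14, 4, 4, 0, 3 and 11 were open. Apart from the olfactory receptors, each list had an interval that included the 2.51% of all genes, so its lack of a very wide peak says little. In all, 16 of the 23 lists lay above the share of all genes, and in 10 the interval did not include it. In most lists, however, a larger share of genes was open than the 53.4% of all genes. Counted over open genes, 11 lists lay above the 4.71% of all open genes, with 6 intervals clear of it. They were splicing factors and hnRNPs at 41.4% (25.5 to 59.3), KLF and SP factors, actin and SRF genes, histones, chromatin regulators and forkhead factors. The 8 histone genes came from only 4 peaks, so the histone intervals, which count genes, are too narrow to place that list clear of either share. Olfactory receptor genes were the large group in which few genes were open at all, 11 of 1085.

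**Figure D4:**
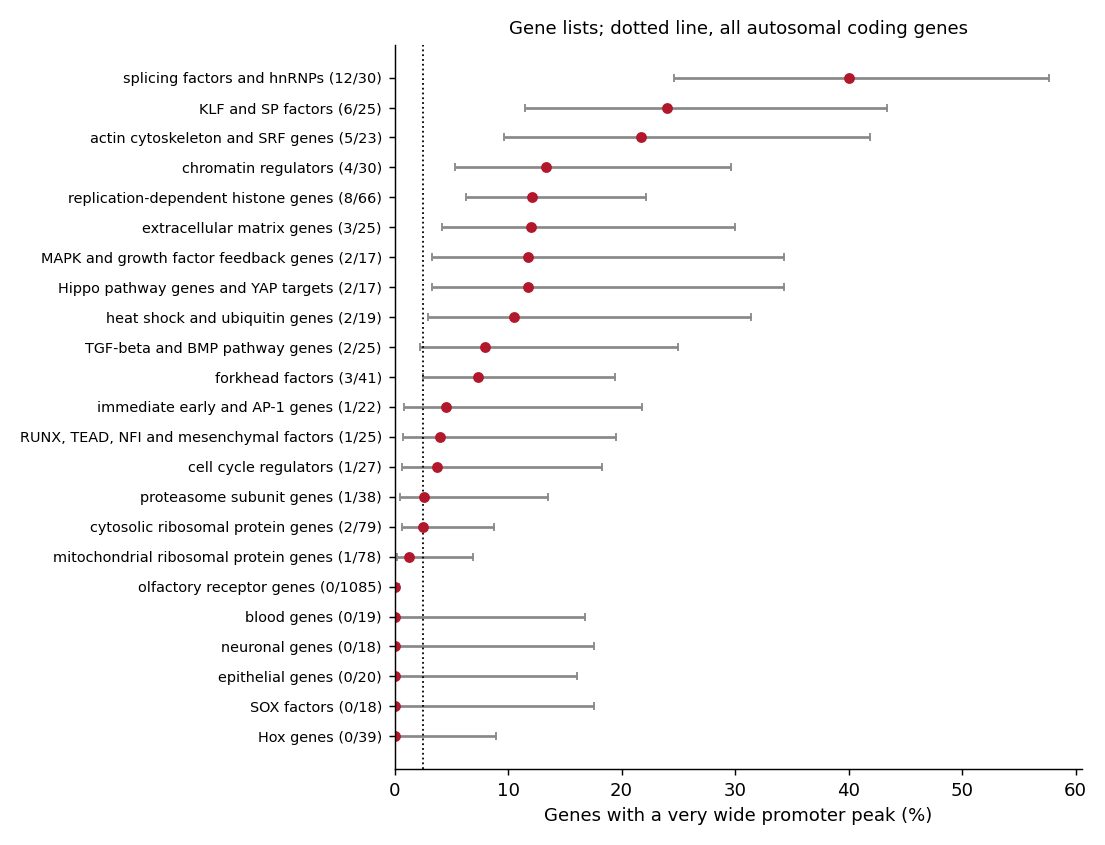
Share of the genes of each list (%) with a very wide promoter peak; the points are shares, the bars 95% Wilson intervals, the numbers count genes, and the dotted line marks 2.51% for all autosomal coding genes. Splicing factors and hnRNPs (40%) and KLF and SP factors (24%) had the highest shares.

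**Figure D5:**
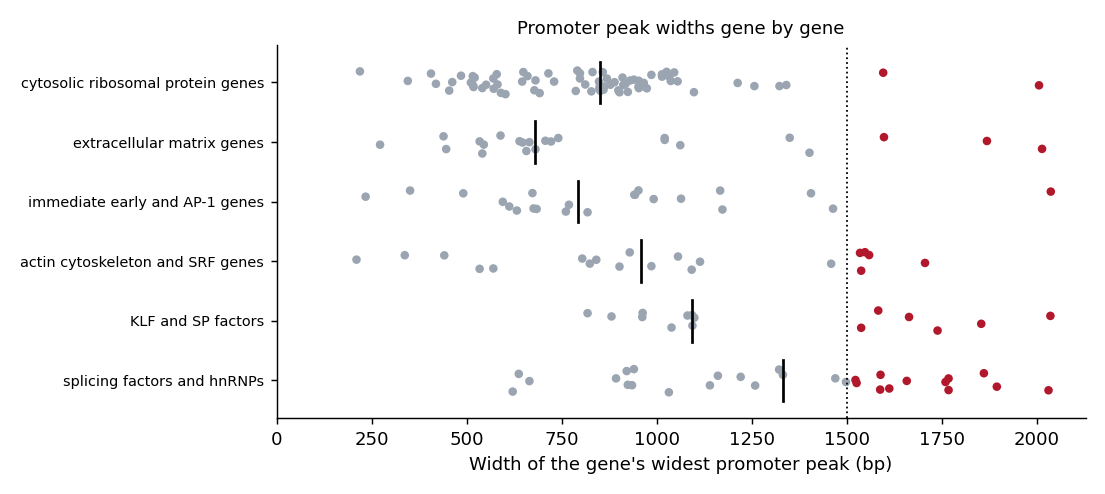
Width (bp) of the widest promoter peak of each open gene in 6 lists, with a bar at the median of the list, a dotted line at 1500 bp and very wide peaks in red; vertical scatter within a list carries no value. The median was 1332 bp for splicing factors and hnRNPs and 851 bp for cytosolic ribosomal protein genes.

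The 51 very wide peaks without CpG-island sequence at the summit fell into separate kinds, and the genes named here were chosen after their values were seen. In 44 the CpG ratio was under 0.6, and in 7, Hist1h1b and Sfpq among them, only the GC content was under 50%. They had a median of 77 fragments at the summit, against 92 for the other 380. In 32 of them the summit still lay inside a CpG-rich stretch, by the smaller windows used for stretches, and in 16 CpG-rich sequence was present only away from the summit. The median cover was 69.7%. Thbs1 is one of the 16. Its summit lay 1514 bp upstream of the start, in sequence with a CpG ratio of 0.326, and 53.0% of the peak was CpG-rich. At Spag9 the summit, with 141 fragments, lay 869 bp upstream. In 3 peaks, over Il16 (1502 bp), Sgk2 (1671 bp) and Acta2 (1559 bp), no base was in a CpG-rich window. Vim, which encodes the intermediate filament vimentin, had a peak of 1755 bp with 114 fragments and a CpG ratio of 0.536.

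The AP-1 site TGACTCA, searched on both strands, had a lower share at the summits of very wide peaks than at those of all narrower promoter peaks, and a share close to that of the next width class. It stood within 150 bp of the summit in 18 of 431, or 4.18% (2.66 to 6.5), against 4.66% (3.88 to 5.58) in the next width class and 8.13% (7.65 to 8.63) in all narrower ones. Anywhere in the peak it was found in 100 of the very wide peaks, or 23.2% (19.5 to 27.4), and 15.4% (14 to 16.9) of the next width class, windows that differ in length. By summit type, 17 of the 51 peaks without a CpG-island summit held one and 83 of the 380 others, or 33.3% (22.0 to 47.0) and 21.8% (18 to 26.3). Sgk2 had 4 sites, Thbs1 3, and Vim and Rtkn 2 each. The ETS core CCGGAA stood at 23.0% (19.2 to 27.2) of very wide summits, 28.9% (27.1 to 30.8) of those of the next width class and 27.4% (26.6 to 28.2) of all narrower ones. At matched depth it stood at 22.3% (17.3 to 28.4) of very wide summits and 34.4% (32.9 to 35.9) of those of narrower peaks of any width. The RUNX core TGTGGT stood at 6.5% (4.53 to 9.23) of very wide summits, 8.56% (7.50 to 9.75) of those of the next width class and 12.8% (12.2 to 13.4) of all narrower ones. The YY1 core AAGATGG stood at 4.41% (2.84 to 6.78) against 7.34% (6.36 to 8.46) and 7.63% (7.16 to 8.12), and CCAAT at 42.9% (38.3 to 47.6) against 38.4% (36.5 to 40.4) and 37.1% (36.2 to 38). At matched depth these intervals overlapped, with RUNX at 6.98% against 10.8%, YY1 at 6.05% against 8.28% and AP-1 at 2.79% (1.29 to 5.95) against 6.01% (5.29 to 6.81) in very wide and narrower peaks, and CCAAT turned the other way, at 40.9% against 44.3%. Shares for the CRE sequence TGACGTCA, the E-box CACGTG, the TEAD site GGAATG, the TATA box TATAAA and the NRF1 core GCGCATG had intervals that overlapped between the very wide peaks and the next width class. A match describes the letters in a window and not a bound site.

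The genes behind the very wide peaks were longer than other open genes, which were not split by peak width or depth. The next width class was thus not compared for these gene measures. Genes behind the very wide peaks had a median span of 31.8 kb (28.0 to 38.5), against 23.0 kb (22.3 to 23.7) for other open genes. The median was 10.4 kb for genes without a promoter peak. Genes behind the very wide peaks also had a median of 3 annotated transcripts, against 2 for other open genes. A second promoter peak was present in 14.4% of them (11.7 to 17.7) and in 19.6% (18.8 to 20.3) of other open genes. A very wide peak can take in starts that might otherwise have separate peaks, so this difference may follow from the selection. The number of other peaks within 50 kb had a median of 5 in each of the 3 width sets. By chromosome, the share of promoter peaks that were very wide ran from 2.31% (1.56 to 3.41) on chromosome 11 to 6.62% (4.94 to 8.83) on chromosome 3, where 42 of 634 were.

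Peaks of this width were mostly promoter peaks. Among all 62170 autosomal peaks, whatever their width, 12275 were coding promoter peaks. A wider interval comes within 1 kb of a start more readily by its length, and this was not adjusted for. Of 525 autosomal peaks of 1500 bp or more, 431 met the rule, or 82.1%. Of the rest, 91 lay away from coding starts, 20 of them within 1 kb of the start of another annotated transcript and 14 mostly of repeat sequence. The remaining 3 lay near coding starts and were left out as repeat-masked: Gm21738 (3969 bp, 84.3% masked), Gm10801 (1817 bp, 55.9%) and a peak of 38218 bp over Gm10715 and its neighbours (96.3%).

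The markers of the cells bore on the label as far as an open promoter can. Of 12 fibroblast markers 10 had a promoter peak, Vim with a very wide one, against 3 of 8 epithelial (Grhl2, Krt14 and Krt8), 1 of 5 blood (Spi1), 2 of 4 endothelial (Cdh5 and Pecam1) and 0 of 6 neuronal markers. The share over all autosomal coding genes was 53.4%, and with so few markers per class these counts are only a rough guide. An open promoter is not expression, and no RNA was measured here.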

How the data were processed

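ATAC-seq was performed on parental NIH-3T3 cells, 1 library. According to the methods and the submitters' processing notes, reads were aligned to mm10 with STAR 2.5.3a, duplicates were removed with Picard, and peaks were called with MACS2 2.1.1.20160309 on whole fragments. SAMtools and deepTools are also named there. The sources name no shift for the Tn5 cut site. The authors deposited, per peak, positions in bases (BED, rewritten here counting from 1), a fold enrichment (a ratio of summit to expected coverage), the −log10 of the p-value and of the q-value, and a score. The total read number is not part of the list. Fragments at the summit were solved from the deposited fold and −log10 p, and 99.997% came out within 0.02 of a whole number. PCR duplicates were judged without molecular identifiers.

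Start sites were those of protein-coding transcripts of GENCODE M21, and sequence was the GRCm38 reference. Both have the build of the peaks. Genes were counted by symbol. Soft-masked bases are the repeat-masked ones. Motifs were counted on both strands, and overlapping matches were kept. Samples were not compared, and no test was run. Shares have Wilson intervals. The peaks, the gene lists and the markers were chosen with earlier results of these data known. Named were the 15 widest, the 10 deepest and the 10 peaks with most starts, 3 peaks on each side of the threshold, those left out as masked, and per list up to 4 genes with the widest peaks. All list members beyond 4, the further genes that share a peak and the markers with a peak were named after their values were seen. Some genes that this rule names are not reported here. Counting steps were tested on simulated data. Software was pysam 0.24.0, SciPy 1.17.1 and pandas 2.3.3 with NumPy 2.4.6, and matplotlib 3.10.9, under Python 3.11.15.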

Additional observations from a re-analysis of the deposited data

How the results depend on the processing

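No paired analysis was possible because the data are 1 library. Of 97 values recomputed for 10 results under 16 alternatives, 82 stayed within the interval of the value above, or within 1.5 times of a count. The number of peaks was 1155 at a minimum width 250 bp lower and 44 at 2000 bp. At 2000 bp the median cover by CpG-rich sequence was 90.0%, the share over 2 or more genes and over starts on both strands 13.6% each, the excess of downstream over upstream reach 423 bp (-94 to 823; 182 bp at 1500 bp), the median depth 98.5 fragments, and the lists above the share of all genes 7; only 1 gene each of the splicing and KLF lists was left, so their shares depended on the threshold. At a minimum 250 bp lower, the order of the lists below splicing factors (56.7%) changed, with heat shock at 36.8%, Hippo at 35.3%, chromatin regulators at 33.3% and the RUNX, TEAD and NFI list at 28% (4% at 1500 bp). With the 5′ end of the gene as its start, the excess was 414 bp. CpG-island summits were 84.2% within 100 bp of the summit and 92.8% over whole peaks. GC boxes were found at 67.5% of summits within 100 bp and 87.2% within 250 bp. The cover was 85.6% at 55% GC and a ratio of 0.65. Other peaks within 20 kb had a median of 2. The change of these values follows from the windows and limits used.

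No peak under 25 fragments at the summit was very wide, and widths at another depth were not tested. Without a second library the spread of these widths is unknown.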
